A study of Mus musculus with 18 samples.

Results

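C/EBPβ and PU.1 were compared at 48 hr postinduction (hpi), the last time point of a time course in which pre-B cells of the line C10 are turned into induced macrophages (iMΦ). C10 cells come from HAFTL pre-B cells of the mouse and carry C/EBPα fused to the hormone-binding domain of the estrogen receptor (C/EBPαER), which β-estradiol moves into the nucleus. All cells of the comparison carried this fusion and were grown with IL-3 and CSF-1 after induction, and all libraries came from this 1 line. Chromatin was precipitated with the antibodies sc-150 for C/EBPβ and sc-352 for PU.1, and the precipitated DNA was sequenced (ChIP-seq). Each factor had 1 library at a time point, so no difference between the libraries could be tested. Values are given with exact 95% intervals (Poisson for read counts, Clopper-Pearson for shares), which cover counting error only. For a count of 0 the upper limit was set at 3 counts in place of the interval. In all, 18 libraries of the series were read: 8 for C/EBPα, 5 for PU.1 and 5 for C/EBPβ.

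The unit of comparison was the 200-bp bin of the mm9 autosomes, chromosomes 1 to 19. Reads were kept once per position and strand, their 5′ ends were moved 75 bp inward, and the PU.1 library (10204581 reads) was thinned at random to the 4945144 reads of the C/EBPβ library. A bin entered the comparison with 7 or more reads in either library, against a mean of 0.400 reads over all bins. This held for 60653 of 12361722 bins, or 0.491%. A bin was called C/EBPβ-high where its C/EBPβ reads were at least 4 times its PU.1 reads and PU.1-high in the opposite case. Bins with 7 or more reads of both factors are called bins with both factors below, and they overlap with the other groups.

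C/EBPβ is a leucine zipper protein that binds DNA as a dimer with itself or with other members of its family, C/EBPα among them. It is induced in many inflammatory responses and is abundant in macrophages and granulocytes. PU.1 belongs to the ETS family, whose members recognise a GGAA core, and both B cells and macrophages depend on it, with higher levels in macrophages. Both are known to act together at enhancers of myeloid genes. PU.1 is called *Sfpi1* in the gene annotation used here.

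The sequences of some bins with the most reads in each group are given as examples. Each is given from 5′ to 3′ on the plus strand of mm9, with capitals for matches of the C/EBP consensus TTGCNNAA and of the PU.1 consensus GAGGAAGT on either strand. The C/EBPβ-high bins near *Cdkl4* (chr17:80960201-80960400) and *Fut7* (chr2:25278601-25278800) each hold 1 C/EBP match and no PU.1 match.
Cdkl4 bin: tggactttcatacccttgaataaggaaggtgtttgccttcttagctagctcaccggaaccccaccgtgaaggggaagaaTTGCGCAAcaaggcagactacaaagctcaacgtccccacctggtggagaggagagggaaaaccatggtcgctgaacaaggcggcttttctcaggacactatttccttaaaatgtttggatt
Fut7 bin: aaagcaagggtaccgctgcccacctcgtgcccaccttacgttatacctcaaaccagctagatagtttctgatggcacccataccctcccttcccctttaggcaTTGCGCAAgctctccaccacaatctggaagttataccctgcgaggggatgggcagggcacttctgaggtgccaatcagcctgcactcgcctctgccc
The PU.1-high bins near *9830001H06Rik* (chr2:156889201-156889400) and *Gm8420* (chr1:51991401-51991600) hold PU.1 matches, 1 and 2 of them, and no C/EBP match.
9830001H06Rik bin: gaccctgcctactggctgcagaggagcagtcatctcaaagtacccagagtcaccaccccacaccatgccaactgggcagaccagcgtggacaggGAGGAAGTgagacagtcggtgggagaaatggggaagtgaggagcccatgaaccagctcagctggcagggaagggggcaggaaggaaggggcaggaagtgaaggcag
Gm8420 bin: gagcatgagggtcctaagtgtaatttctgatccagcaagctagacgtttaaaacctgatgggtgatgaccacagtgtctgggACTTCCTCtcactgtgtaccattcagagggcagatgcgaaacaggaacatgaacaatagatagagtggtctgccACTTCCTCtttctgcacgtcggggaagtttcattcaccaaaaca
The bin with both factors near *Diap3* (chr14:87590601-87590800) holds a match of each, from positions 69 and 86 of the bin.
Diap3 bin: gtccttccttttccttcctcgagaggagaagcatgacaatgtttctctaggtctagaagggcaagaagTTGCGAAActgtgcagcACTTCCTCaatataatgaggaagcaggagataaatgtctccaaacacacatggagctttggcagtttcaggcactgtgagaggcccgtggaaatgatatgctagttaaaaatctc
The *Cdkl4*, *Fut7*, *9830001H06Rik* and *Gm8420* bins rank highest by reads in their groups, at 1 site per nearest gene. The *Diap3* bin is shown because it alone, of the 3 highest bins with both factors, holds both matches. These bins are not typical of their groups, since 61.1% of C/EBPβ-high and 72.7% of PU.1-high bins held neither consensus.

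At these sites, except that of *Diap3*, the counts lay far apart. The *Cdkl4* bin had 169 C/EBPβ reads (144 to 196) and 3 PU.1 reads (0.619 to 8.77), and the *Fut7* bin had 158 (134 to 185) and 8 (3.45 to 15.8). The *9830001H06Rik* bin had 136 PU.1 reads (114 to 161) and 4 C/EBPβ reads (1.09 to 10.2), and the *Gm8420* bin had 130 (109 to 154) and 2 (0.242 to 7.22). At the *Diap3* bin the factors were close, with 100 C/EBPβ reads (81.4 to 122) and 104 PU.1 reads (85.0 to 126).

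Most bins were dominated by one of the factors. Of the 60653 bins, 30983 were PU.1-high (51.1%, 95% interval 50.7% to 51.5%), 11831 were C/EBPβ-high (19.5%, 19.2% to 19.8%) and 17839 lay in between (29.4%). Both factors reached 7 reads in 6807 bins (11.2%, 10.97% to 11.5%). C/EBPβ reached 7 reads in 22661 bins and PU.1 in 44799, at the same number of reads per library. The bins held 8.63% of the C/EBPβ library and 15.4% of the thinned PU.1 library, so that the libraries also differed in how much of them was concentrated in these bins. The cause of this difference was not tested.

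In many bins the other factor was not detectable at this depth. In 3563 C/EBPβ-high bins PU.1 had no read and in 9860 PU.1-high bins C/EBPβ had none, and a count of 0 allows up to 3 reads. The thinning left 5259437 PU.1 reads unused, which took no part in choosing the bins. Scaled to the same depth, these reads averaged 2.13 per C/EBPβ-high bin (1.59 among the reads drawn) and 16.2 per PU.1-high bin (17.5 among the reads drawn). In the 3563 bins without a drawn PU.1 read the unused reads averaged 1.06, above the mean of 0.400 over all bins. The highest counts in a bin were 217 for C/EBPβ and 136 for PU.1. The 217 came from the bin nearest *Gm5614*, which had high counts in the libraries of every factor already at 0 hpi. The highest C/EBPβ count in a C/EBPβ-high bin was 169.

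**Figure D1:**
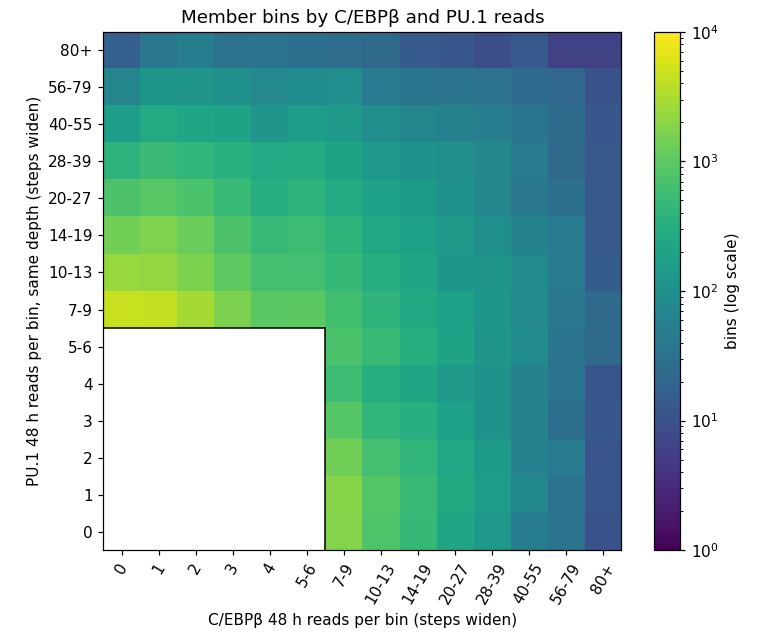
Number of member bins (colour, log scale) by C/EBPβ reads (x axis) and PU.1 reads (y axis) per 200-bp bin at 48 hpi, in steps that widen; the white corner holds the bins below 7 reads of both factors, which were not compared. The bins gather along the lower and left edges, where the other factor has few reads, and the fullest cells are those with 7 to 9 PU.1 reads and 0 or 1 C/EBPβ reads.

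Bins with more reads of a factor more often had the other factor as well. Among bins with 7 to 9 C/EBPβ reads, 23.5% (22.6% to 24.4%) also had 7 or more PU.1 reads, and among bins with 60 or more C/EBPβ reads 56.2% (51.8% to 60.5%) did. For PU.1 the share with C/EBPβ rose over the same steps from 10.1% (9.65% to 10.6%) to 34.3% (31.3% to 37.4%). The share of 4-fold bins rose as well, reaching 72.7% for C/EBPβ (46.9% at 7 to 9 reads) and 86.0% for PU.1 (61.9%). Part of this rise is fixed by the rule. A bin with 7 to 9 reads is 4-fold only with at most 2 reads of the other factor, whereas one with 60 or more allows many more. The median PU.1 count was 2 in bins with 7 to 9 C/EBPβ reads and 8 in bins with 60 or more. The median C/EBPβ count rose from 1 to 4 over the same steps of PU.1.

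**Figure D2:**
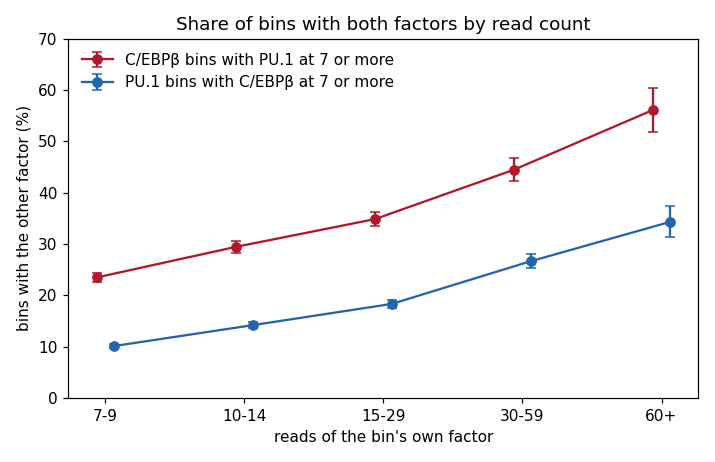
Share of bins (y axis, percent) in which the other factor had 7 or more reads, by the reads of the bin's own factor (x axis); points are shares over bins of 1 library pair and bars are 95% Clopper-Pearson intervals. Both lines rise from left to right, that of C/EBPβ bins from 23.5% to 56.2% and that of PU.1 bins from 10.1% to 34.3%.

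Further bins had the other factor nearby. Of the 22661 bins with C/EBPβ, 30.0% had PU.1 at 7 or more reads in the same bin, 41.4% in the same or an adjoining bin, 51.5% within 5 bins (1 kb) and 68.2% within 25 bins (5 kb). For the 44799 bins with PU.1, the shares with C/EBPβ were 15.2%, 22.1%, 28.3% and 41.9%. These shares grow with the width searched and with the number of bins of the other factor, which was larger for PU.1. The same shares were not computed for all bins, so they are not a measure of closeness between the factors. Runs of member bins with at most 1 other bin between them formed 38177 sites, of which 21799 (57.1%) were a single bin. Represented by their bin with the most reads, 7640 sites were C/EBPβ-high (20.01%), 20059 PU.1-high (52.5%) and 4561 had both factors (11.9%), shares close to those of the bins.

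The sequence under the bins followed the factor that had the reads. The C/EBP consensus was present in 38.1% of C/EBPβ-high bins (37.2% to 39.0%), in 24.5% of bins with both factors (23.5% to 25.6%) and in 7.01% of PU.1-high bins (6.73% to 7.30%). Of all bins of known sequence, 9.28% contained it, so that PU.1-high bins held it less often than the genome at large. Shares of all bins, here and below, were not matched for GC content, which averaged 47.2% in PU.1-high bins and 41.9% in all bins. The PU.1 consensus was present in 21.6% of PU.1-high bins (21.2% to 22.1%), in 14.1% of bins with both factors (13.3% to 14.95%) and in 1.61% of C/EBPβ-high bins (1.40% to 1.86%), against 1.20% of all bins. Both consensus sequences stood together in 3.36% of bins with both factors (2.95% to 3.82%), 0.769% of C/EBPβ-high bins and 1.38% of PU.1-high bins. Neither was present in 64.7%, 61.1% and 72.7% of these groups. Matches were counted on both strands and wholly inside the bin, and they are descriptions of the letters, not shown to be the bound bases.

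Consensus matches became more frequent with the reads of the factor. In C/EBPβ-high bins the C/EBP share rose from 30.0% with 7 to 9 reads (28.6% to 31.4%) to 55.7% with 30 to 59 and 73.3% with 60 or more (68.5% to 77.7%). In PU.1-high bins the PU.1 share rose from 16.9% (16.2% to 17.6%) to 31.7% and 50.4% (46.9% to 53.8%).

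Other motifs were searched in the same bins. AP-1, the target of FOS and JUN dimers, was searched as TGACTCA on both strands and found in 8.44% of C/EBPβ-high bins, 8.001% of PU.1-high bins and 11.9% of bins with both factors (11.1% to 12.7%), against 3.14% of all bins. The RUNX sequence TGTGGTT occurred in 6.96%, 5.42% and 8.14% of these groups and in 4.73% of all bins. A composite of ETS and IRF half-sites, GGAA and GAAA with 2 bases between them, was present in 2.57% of C/EBPβ-high bins, 6.01% of PU.1-high bins and 7.36% of bins with both factors (6.75% to 8.01%), against 2.17% of all bins. Its GGAA may be the one of the PU.1 consensus. TTGCATCA stood apart from these in following C/EBPβ. This sequence, to which dimers of C/EBP and ATF proteins bind, was found in 5.46% of C/EBPβ-high bins (5.06% to 5.88%) and 0.426% of PU.1-high bins (0.357% to 0.505%), against 0.617% of all bins. The EBF1 sequence TCCCNNGGG, whose factor drives the B-cell program, was at 3.72%, 3.51% and 3.85% in C/EBPβ-high bins, PU.1-high bins and bins with both, against 1.87% of all bins. The E box CAGCTG was at 12.3%, 10.99% and 12.4% against 7.37%.

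**Figure D3:**
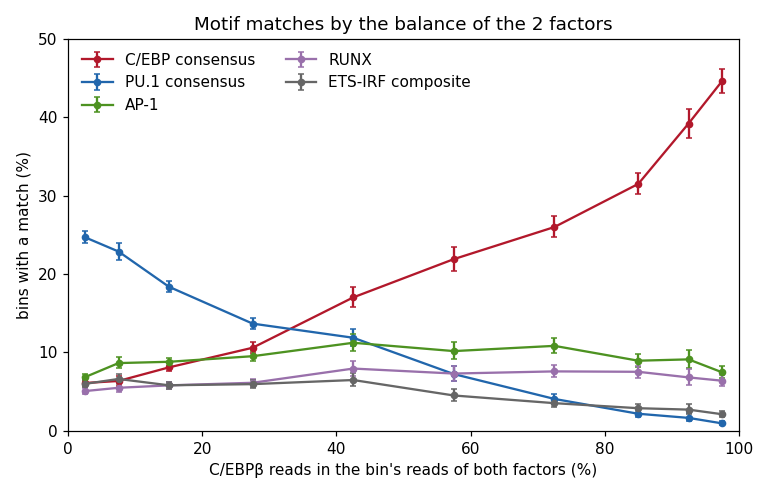
Share of member bins with a motif match (y axis, percent) by the share of C/EBPβ in the reads of both factors in the bin (x axis, percent); each point is 1 of 10 classes of bins, placed at the middle of its class, and bars are 95% Clopper-Pearson intervals. The C/EBP consensus rises from 6.11% to 44.6% and the PU.1 consensus falls from 24.7% to 0.960%, while AP-1 is highest in the middle, at 11.2%.

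Across the balance of the reads the consensus shares changed by steps rather than at a threshold. In bins with under 5% of the reads from C/EBPβ, 6.11% had the C/EBP consensus and 24.7% the PU.1 consensus. Between 35% and 50% the shares were 17.03% and 11.9%, and from 95% upwards they were 44.6% and 0.960%. AP-1 was at 6.86% and 7.47% in the outer classes and at 11.2% (10.2% to 12.4%) between 35% and 50%.

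The exact letters of the consensus went with very different shares of bins with the factor. The palindrome TTGCGCAA occurred in 1941 bins of chromosomes 1 to 19, and 473 of them (24.4%, 22.5% to 26.3%) had 7 or more C/EBPβ reads. For TTACGCAA the share was 9.55% of 5003 bins and for TTGCGAAA 5.36% of 6700, whereas TTGCACAA, the form found in the most C/EBPβ-high bins (1151), reached 2.13% of 73408 bins. TTCAGCAA stood at 0.164% of 154204 bins. The 3 forms with the highest shares contain a CG dinucleotide, but so do TTCCGCAA and TTCGGCAA, which stood at 0.689% and 0.326%. None of the 30983 PU.1-high bins held TTGCGCAA, which allows a share of up to 0.00968% (3 counts), and 436 C/EBPβ-high bins did (3.69%). The form is rare, in 1941 of 11968110 bins of known sequence. Few matches would thus be expected in the PU.1-high bins, and whether they lack it beyond that was not tested.

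The order of the 5 leading forms was the same near genes and away from them. Within 1 kb of a transcription start site (TSS), TTGCGCAA had C/EBPβ in 53.3% of 150 bins (45.02% to 61.5%) and TTGCACAA in 8.35% of 1581 (7.03% to 9.82%). Beyond 1 kb the shares were 21.9% of 1791 (20.05% to 23.9%) and 1.99% of 71827 (1.89% to 2.09%). C/EBPβ-high bins with TTGCGCAA had a median of 18 C/EBPβ reads, and those with TTGCACAA a median of 16. Per 10000000 reads, the former averaged 11.3 C/EBPβ reads at 0 hpi and 60.3 at 48 hpi, and the latter 5.04 and 50.4. For C/EBPα the order changed with time, at 14.6 and 5.51 at 0 hpi, 25.9 and 29.1 at 3 hpi, and 12.97 and 18.1 at 48 hpi. These forms were singled out after their values were seen.

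PU.1 showed a like dependence on letters outside the GGAA core. GAGGAAGT had PU.1 in 5.82% of 143585 bins (5.70% to 5.94%), GGGGAAGT in 3.42%, CAGGAAGT in 2.42% and GAGGAATT in 0.292%. GCGGAAGT, which contains CG, reached 7.79% of 7685 bins (7.20% to 8.42%). Of the 440 PU.1-high bins with GCGGAAGT, 64.5% lay within 1 kb of a TSS, compared with 9.15% of the 6699 with GAGGAAGT. Away from TSSs the order of these forms was reversed, at 3.20% (2.79% to 3.65%) for GCGGAAGT and 5.41% (5.30% to 5.53%) for GAGGAAGT.

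A consensus match lay in a bin with its factor far more often where the other factor had reads. Of 1213821 C/EBP matches, 0.656% lay in a bin with 7 or more C/EBPβ reads. The share was 37.8% (36.5% to 39.2%) of the 5036 matches whose bin had 7 or more PU.1 reads, and 0.191% of the 898573 whose bin had none. Of 150421 PU.1 matches 5.94% lay in a bin with PU.1, with 76.3% (73.9% to 78.5%) of the 1350 in bins with C/EBPβ and 2.38% of the 98443 in bins without a C/EBPβ read. What else the bins with reads of the other factor have in common was not tested. Of 5296 C/EBP matches with a PU.1 match within 50 bp, 5.15% lay in a bin with C/EBPβ (4.57% to 5.78%), compared with 0.622% of those without a PU.1 match within 150 bp. For PU.1 matches the gap was smaller, with PU.1 at 7.96% of the 5173 that had a C/EBP match within 50 bp (7.24% to 8.74%) and at 5.81% of those without one within 150 bp (5.69% to 5.94%).

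**Figure D4:**
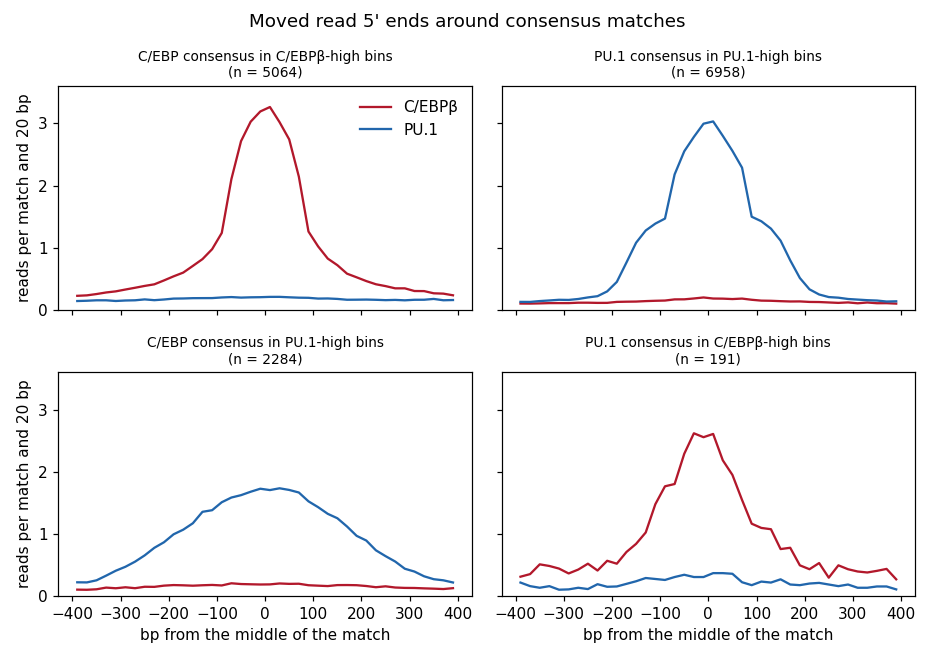
Reads per match and 20 bp (y axis) of C/EBPβ (red) and PU.1 (blue) against the distance of their moved 5′ ends from the middle of consensus matches (x axis, bp), for 4 combinations of consensus and group, with the number of matches above each panel. The factor that defines the group peaks over its own consensus (upper panels), where the choice of bins favours a peak, while PU.1 forms a lower and wider peak around C/EBP matches in PU.1-high bins (lower left) and C/EBPβ peaks in the bins with a PU.1 match (lower right, 191 matches).

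The bins were chosen for the reads of a factor, so a peak over any sequence inside them is in part fixed by that choice, and the profiles are a description. In C/EBPβ-high bins, C/EBPβ reached 3.26 reads per 20 bp next to the middle of a C/EBP match and fell to 0.225 at 390 bp, while PU.1 stayed between 0.141 and 0.208 at these distances. Around the 191 PU.1 matches in these bins C/EBPβ reached 2.62. In PU.1-high bins, PU.1 reached 3.03 over its own consensus, but 1.73 around C/EBP matches, where C/EBPβ was at 0.183. The PU.1 peak was wider, with 1.08 reads at 150 bp before the match, than the C/EBPβ peak with 0.706. The distance between the strands was 111 bp in the C/EBPβ library and 239 bp in the PU.1 library. Its middle lay 55 and 119 bp inward, so the move of 75 bp was not the middle of either. Fragment length itself was not measured.

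C/EBPα was followed at the same bins, because its binding starts the process and it recognises the same consensus as C/EBPβ. With the C/EBPα library of 48 hpi thinned to the same depth, C/EBPα had 7 or more reads in 51.1% of bins with both factors (49.9% to 52.3%), in 26.6% of C/EBPβ-high bins (25.8% to 27.4%) and in 1.79% of PU.1-high bins (1.64% to 1.94%). The share was 12.8% over all bins compared and 0.0740% over all bins of chromosomes 1 to 19. The median C/EBPα count in bins with both factors, C/EBPβ-high bins and PU.1-high bins was 7, 3 and 1. Of the 9148 bins with C/EBPα at that depth, 7754 (84.8%) were among those compared.

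The time course showed C/EBPβ-high bins gaining C/EBPβ until the end, while C/EBPα peaked there early. Per 10000000 reads, mean C/EBPβ in C/EBPβ-high bins was 4.73, 10.96, 13.0, 21.04 and 35.6 at 0, 3, 12, 24 and 48 hpi. Mean C/EBPα in the same bins was 5.03 at 0 hpi, 5.13 at 10 min, 14.3 at 30 min, 15.7 at 60 min, 21.2 at 3 hpi and 12.3 at 48 hpi. PU.1 in these bins stayed between 2.50 and 5.02 at all 5 time points, above the 0.836 that bins of known sequence averaged. The bins were chosen on C/EBPβ and PU.1 at 48 hpi, which favours high values of these factors there.

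PU.1-high bins held PU.1 from the start. Mean PU.1 there was 30.2 per 10000000 reads at 0 hpi and 34.0 at 48 hpi, with the lowest value at 24 hpi (27.3) and the highest at 12 hpi (35.02). The median bin was lower and changed more, from 16.0 at 0 hpi to 23.5 at 48 hpi. C/EBPα and C/EBPβ stayed at or below 4.02 and 3.04 in these bins at all time points. From 0 to 48 hpi, mean PU.1 in bins with both factors went from 30.0 to 42.3 and median PU.1 from 13.1 to 29.4. Their mean C/EBPβ went from 6.27 to 39.1 and the median from 2.40 to 26.3. Mean C/EBPα in bins with both factors reached 21.7 at 30 min and 29.2 at 12 hpi, and was at 21.9 at 48 hpi. At 0 hpi 2.59% of PU.1-high bins, 5.94% of bins with both factors and 33.7% of C/EBPβ-high bins had no PU.1 read in a library of 6884238 reads. With 1 library per time point these steps have no replicate error, and libraries of different depth enter them.

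**Figure D5:**
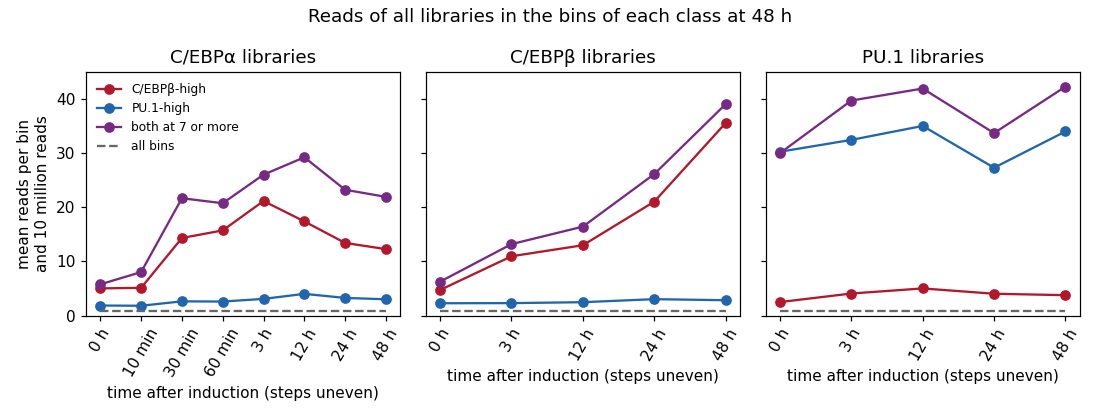
Mean reads per 200-bp bin and 10000000 reads (y axis) of the libraries of each factor (panels) by time after induction (x axis, steps uneven), in the bins that were C/EBPβ-high, PU.1-high or had both factors at 48 hpi; each point is 1 library and the dashed line is the mean of all bins of known sequence (0.836). C/EBPβ climbs in the C/EBPβ-high bins and in those with both factors, and PU.1 is present in the PU.1-high bins and in those with both factors from 0 hpi.

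The earlier libraries of the same factors, which had no part in choosing the bins, mostly pointed the same way. At 24 hpi, with both libraries at 3040876 reads, 83.5% of C/EBPβ-high bins had more C/EBPβ than PU.1 reads and 7.27% had fewer, while 91.9% of PU.1-high bins had more PU.1 reads and 2.89% had fewer. At 0 hpi, with 4169425 reads each, PU.1 already led in 88.5% of PU.1-high bins, and C/EBPβ led in 52.1% of C/EBPβ-high bins with 26.9% tied. In bins with both factors PU.1 led in 73.5% at 0 hpi, 76.3% at 3 and 12 hpi, and 57.9% at 24 hpi.

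Both groups lay at like distances from genes. Of C/EBPβ-high bins 13.99% (13.4% to 14.6%) and of PU.1-high bins 12.6% (12.2% to 13.0%) lay within 1 kb of the TSS of a protein-coding gene, compared with 2.36% of all bins of known sequence. The share was 11.05% (10.3% to 11.8%) for bins with both factors. Bins in introns and beyond 1 kb made up 39.5% of all C/EBPβ-high and 44.2% of all PU.1-high bins, and those between genes and beyond 1 kb 42.9% and 39.7%. The median distance to the nearest TSS was 15798 bp for C/EBPβ-high bins, 15346 bp for PU.1-high bins and 54350 bp for all bins. GC content averaged 47.3% ± 7.23 (SD over 11831 bins) in C/EBPβ-high bins, 47.2% ± 7.53 (30983 bins) in PU.1-high bins and 41.9% ± 7.92 in all bins.

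Bins near a TSS less often held the consensus of their factor. Within 1 kb, 30.9% of C/EBPβ-high bins had the C/EBP consensus, whereas 41.7% of those over 100 kb from a TSS did. For the PU.1 consensus in PU.1-high bins the shares were 15.7% and 24.6%. The GC box GGGCGG, a promoter sequence bound by SP factors, occurred in 23.6% of C/EBPβ-high and 26.7% of PU.1-high bins within 1 kb and in 1.54% and 1.97% of those over 100 kb away. The balance of the groups changed little with distance, with C/EBPβ-high bins making up 20.5%, 18.6%, 19.4% and 20.9% of the bins within 1 kb, from 1 to 10 kb, from 10 to 100 kb and over 100 kb. PU.1-high bins made up 48.4%, 52.6%, 50.7% and 52.0% at the same distances. Across the 19 chromosomes the C/EBPβ-high share ranged from 18.1% to 20.9% and the PU.1-high share from 48.6% to 56.3%.

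The 8 C/EBPβ-high sites with the most reads, at 1 per nearest gene, had 147 to 169 C/EBPβ reads and 0 to 25 PU.1 reads, and all 8 held the C/EBP consensus and none the PU.1 consensus. They lay near *Cdkl4*, *Fut7*, *Srgn*, *Ndel1*, *Abhd11*, *Tal1*, *Gm4978* and *Dnajc5b*. *Fut7* encodes a fucosyltransferase that makes selectin ligands on leukocytes, and its site lay 86 bp upstream of the TSS. *Srgn* encodes serglycin, the proteoglycan of secretory granules, and its site (chr10:61972001-61972200), in an intron 1256 bp upstream of the nearest TSS, had 154 C/EBPβ reads (131 to 180) and 25 PU.1 reads (16.2 to 36.9). The site nearest *Tal1*, a transcription factor of blood progenitors, lay 21130 bp upstream of it inside *Stil* (chr4:114707801-114708000) and had 148 C/EBPβ reads (125 to 174) and no PU.1 read. A fold against 0 is a lower bound, and with the limit of 3 reads C/EBPβ was at least 49.3-fold higher there. The *Ndel1* site, 141 bp upstream of the TSS, was the only one of the 8 with over 100 C/EBPα reads at the same depth (136), compared with 18 to 71 at the others.

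These sites differed in when they filled. Per 10000000 reads, C/EBPβ at the *Cdkl4* site was 139, 137, 244, 250 and 342 at 0, 3, 12, 24 and 48 hpi, and C/EBPα was already at 118 before induction and at 39.9 at 48 hpi. At the *Gm4978* site C/EBPβ was 2.40, 82.7, 142, 201 and 299 at the same times, and C/EBPα rose from 11.6 at 0 hpi to 68.0 at 30 min and 189 at 12 hpi. At the *Tal1* site C/EBPβ was 19.2, 56.3, 113, 260 and 299 while C/EBPα stayed between 5.78 and 45.9. PU.1 was at or below 1.80 at the *Tal1* site at all 5 time points. The first site thus had reads in the libraries of both C/EBP factors at 0 hpi. The second gained reads of both, and the last gained C/EBPβ reads with fewer C/EBPα reads. For low C/EBPα signal in pre-B cells the paper proposes some leakiness of the transgene, which was not tested at these sites.

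The 8 highest PU.1-high sites had 122 to 136 PU.1 reads and 0 to 25 C/EBPβ reads, and 6 of them held the PU.1 consensus. They lay near *9830001H06Rik*, *Gm8420*, *Prg2*, *Siglecg*, *Akap5*, *Taf3*, *Tax1bp1* and *Hspa8*. *Siglecg* encodes an inhibitory receptor of B cells, and its site, 15673 bp upstream of the TSS (chr7:50647801-50648000), had 130 PU.1 reads (109 to 154) and 6 C/EBPβ reads (2.20 to 13.1). PU.1 there was 360, 394, 233, 180 and 254 per 10000000 reads at 0, 3, 12, 24 and 48 hpi. The site nearest *Hspa8*, which encodes a constitutive heat shock protein, lay 16766 bp upstream in an exon of *9030425E11Rik* (chr9:40592201-40592400) and had 122 PU.1 reads (101 to 146) and no C/EBPβ read. Its PU.1 was 272 at 0 hpi and 236 at 48 hpi. *Prg2*, which encodes the major basic protein of eosinophils, had the most C/EBPβ of these sites, with 25 C/EBPβ reads (16.2 to 36.9) against 130 PU.1 reads, and its bin (chr2:84807601-84807800) held both consensus sequences. C/EBPβ rose there from 4.80 at 0 hpi to 50.6 at 48 hpi, and C/EBPα from 5.78 to 51.5.

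Among bins with both factors, the highest by the smaller count lay near *Zc3h12d*, *Gm5614*, *Diap3*, *Fut4*, *Gclc*, *Mknk1*, *Gm10655* and *Gm885*. The *Zc3h12d* site, in an intron (chr10:7561601-7561800), had 133 C/EBPβ reads (111 to 158) and 109 PU.1 reads (89.5 to 131). The site near *Gclc*, which encodes the catalytic subunit of the first enzyme of glutathione synthesis, lay 74159 bp downstream of the TSS (chr9:77676401-77676600) and had 81 and 105 reads. Its PU.1 went from 107 at 0 hpi to 219 at 48 hpi and its C/EBPβ from 7.20 to 164. At *Mknk1*, which encodes a kinase of the translation factor eIF4E, PU.1 went the other way, from 325 at 0 hpi to 228 at 48 hpi, while C/EBPβ went from 19.2 to 158. At *Diap3* both rose, PU.1 from 46.5 to 213 and C/EBPβ from 14.4 to 202. The intervals of the 2 counts at 48 hpi overlapped at all of these sites except *Gm5614* and *Mknk1*.

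Among the named sites with both factors, the *Gm5614* bin stood apart by its C/EBPα and C/EBPβ reads before induction. It had 199, 353 and 318 reads per 10000000 in the C/EBPα, C/EBPβ and PU.1 libraries of 0 hpi. At 48 hpi it had 217 C/EBPβ reads and 103 PU.1 reads. Like the *Fut4* bin, it held neither consensus. Whether it lies in a repeat was not tested, since the reference marks no repeats. Of all bins compared, 79 had 30 or more reads per 10000000 in all 3 libraries of 0 hpi, among them those nearest *Gm10800*, *Gm10801* and *Gm10722*, which were 3 of the 8 highest within 1 kb of a TSS. Of the 79 bins, 5 were C/EBPβ-high, none PU.1-high and 74 in between. Of the 79 bins, 43 had 30 or more reads per 10000000 in all 18 libraries. The *Zc3h12d* bin was among the 79 and also among the 43. It had 78.6, 60.0 and 221 reads per 10000000 in the C/EBPα, C/EBPβ and PU.1 libraries of 0 hpi, and its C/EBPβ was at 269 at 48 hpi. Another of the 79 was the C/EBPβ-high bin nearest *Dclre1c*, where C/EBPβ went from 64.8 at 0 hpi to 283 at 48 hpi and PU.1 from 40.7 to 20.6. Without the 79 bins the number with both factors was 6728.

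Member bins were assigned to the nearest protein-coding TSS within 100 kb, which does not show that the gene is regulated from there. Of 21281 protein-coding genes, 11199 (52.6%) had 1 or more such bins. All 16 macrophage genes of the list had some, as did 12 of 12 inflammation genes, 8 of 11 granule genes, 11 of 14 B-lineage genes, 20 of 21 transcription factor genes in the annotation and 8 of 11 housekeeping genes. *Ctsg*, *Ngp* and *Lcn2* of the granule list, *Cd22*, *Vpreb1* and *Rag2* of the B-lineage list, *Cebpe*, and *Sdha*, *B2m* and *Tubb5* of the housekeeping list had none.

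The balance of the factors in the lists was set beside that of all bins, with no test. Of the 221 bins of macrophage genes, 43 were C/EBPβ-high (19.5%), 97 PU.1-high (43.9%) and 51 had both factors (23.1%), where all bins had 19.5%, 51.1% and 11.2%. Of the 98 bins of B-lineage genes, 17 were C/EBPβ-high (17.3%), 58 PU.1-high (59.2%) and 5 had both (5.10%). Inflammation genes had 18.3% of 104 bins with both factors and the granule genes 13.9% of 36. The housekeeping genes had 18.2% of 55 bins with both. Of the 252 bins of transcription factor genes, 63 were C/EBPβ-high (25%), 97 PU.1-high (38.5%) and 32 had both (12.7%). The median share of C/EBPβ in the reads of a bin was 35.8% for granule genes, 33.3% for inflammation genes, 30.8% for transcription factor genes, 30.0% for macrophage genes, 16.7% for housekeeping genes and 13.2% for B-lineage genes, and 20% for all bins.

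Among macrophage genes, *Tlr2*, a receptor for bacterial lipoproteins, had the most bins (34), of which 12 were C/EBPβ-high and 11 PU.1-high. Its bin with the most C/EBPβ lay 43612 bp upstream and had 110 C/EBPβ, 6 PU.1 and 73 C/EBPα reads, and the one with the most PU.1 had 43 PU.1 reads and 1 C/EBPβ read. *Tlr4*, the endotoxin receptor, had PU.1 at the TSS, with 90 PU.1 and 6 C/EBPβ reads 54 bp downstream, and C/EBPβ 24654 bp downstream, with 40 C/EBPβ and 9 PU.1 reads. *Csf1r*, the receptor for CSF-1, had 37 PU.1 reads and 1 C/EBPβ read at a bin centred 5 bp from the TSS, and 23 C/EBPβ and 3 PU.1 reads 21768 bp downstream. *Itgb2*, the common chain of leukocyte integrins, was split in the same manner, with 29 PU.1 reads and 1 C/EBPβ read at the TSS and 52 C/EBPβ and 6 PU.1 reads 20786 bp downstream. *Emr1*, which encodes the F4/80 antigen, had 34 C/EBPβ and 4 PU.1 reads at the TSS. *Cd68* had the fewest bins (3), and 40 PU.1 and 10 C/EBPβ reads at its TSS.

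The inflammation genes included bins with high counts of both factors. *Il6* had 76 C/EBPβ, 53 PU.1 and 81 C/EBPα reads in 1 bin 64800 bp upstream, the highest of its 25 bins for either factor. *Il1b* had 83 C/EBPβ and 57 PU.1 reads 2226 bp upstream, and the next bin had 20 and 102. *Ptgs2*, which encodes cyclooxygenase 2, had 94 C/EBPβ, 27 PU.1 and 82 C/EBPα reads 64847 bp downstream. All 4 bins of *Nos2* were C/EBPβ-high, with at most 8 C/EBPβ reads, whereas *Arg1* had 4 of 5 PU.1-high bins. *Tnf* stayed at 7 reads or fewer of either factor.

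In the granule list *Mmp8* had the most bins (12), with 43 C/EBPβ and 42 PU.1 reads in 1 bin 6328 bp upstream. *Prtn3*, a serine protease of primary granules, had 50 C/EBPβ, 4 PU.1 and 35 C/EBPα reads 1658 bp upstream. *Camp*, the cathelicidin gene, had 37 C/EBPβ and 3 PU.1 reads 131 bp upstream and 55 PU.1 reads and 1 C/EBPβ read 4266 bp downstream. *S100a8* had 31 C/EBPβ and 26 PU.1 reads 92 bp upstream.

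Of the 98 bins of B-lineage genes 58 were PU.1-high. *Bach2*, a repressor that favours lymphoid fate, had the most bins (19), of which 11 were PU.1-high, with 72 PU.1 and 5 C/EBPβ reads in the bin with the most PU.1 and at most 11 C/EBPβ reads in any. *Foxo1* had 9 of 12 bins PU.1-high with up to 40 PU.1 reads, and *Blnk*, an adaptor of the B-cell receptor, had up to 52. All 4 bins of *Cd79a* and all 3 of *Rag1* were PU.1-high. *Pax5* was an exception in having 35 C/EBPβ reads and 1 PU.1 read in a bin 64979 bp downstream of the TSS, beside 38 PU.1 reads and 1 C/EBPβ read 39179 bp downstream. *Ebf1* had no bin above 10 C/EBPβ or 25 PU.1 reads.

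The genes of both factors themselves carried high counts. *Cebpb* had 45 bins within 100 kb, of which 15 were C/EBPβ-high, 11 PU.1-high and 11 had both. Its highest bin for either factor lay 71286 bp downstream and had 121 C/EBPβ and 71 PU.1 reads, with 38 C/EBPα reads. *Sfpi1* had 133 C/EBPβ and 4 PU.1 reads in the bin that starts at position 90938401 of chromosome 2, 1564 bp downstream of the nearest TSS. Its bin with the most PU.1, which starts at 90923201, had 50 PU.1, 35 C/EBPβ and 67 C/EBPα reads. It lay 754 bp downstream of a different annotated TSS of the gene, upstream of the first. The paper illustrates C/EBPα, C/EBPβ and PU.1 at a distal enhancer (URE) upstream of this gene. By the starts of the bins, the one with the most PU.1 lies far upstream of the first TSS, the side on which the paper places that enhancer. Its coordinates were not compared with those of the enhancer. *Cebpa* had a single bin, with 11 PU.1 reads and no C/EBPβ read, 31789 bp downstream. *Runx1* had the most bins of the list (56), with up to 62 C/EBPβ and 94 PU.1 reads in different bins. *Nfe2* had 72 C/EBPβ, 8 PU.1 and 72 C/EBPα reads 67 bp upstream of the TSS, and *Fosl2*, an AP-1 subunit, had 73 C/EBPβ and 2 PU.1 reads 3056 bp downstream. *Klf4* had 84 C/EBPβ and 31 PU.1 reads 91154 bp upstream, and *Irf8* had 10 of 23 bins PU.1-high and no bin above 8 C/EBPβ reads.

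Bins near promoters of the housekeeping genes were among the members. *Ppia* had 27 C/EBPβ reads and 1 PU.1 read 55 bp from its TSS. *Ywhaz* had the most bins (28), with 18 PU.1-high and up to 91 PU.1 reads 73068 bp from the TSS, and *Actb* had 77 PU.1 and 10 C/EBPβ reads 2468 bp upstream.

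At the threshold, the bins with a larger count of 7 averaged 3.36 C/EBPβ and 5.30 PU.1 reads (10258 bins), and the 15466 bins just below it, with a larger count of 6, averaged 3.08 and 4.40. Their counts differ by little more than 1 read, and the counts of bins above depend on where this minimum was set.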

How the data were processed

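C/EBPβ, PU.1 and C/EBPα ChIP-seq libraries of C10 cells were used. Bases were called by the authors in the Illumina pipeline. Alignment to mm9 allowed no mismatches and used ELAND or Bowtie (versions are not given in the sources used here), and per the methods unique, non-identical tags were kept. Repeats of position and strand were still present in 5 C/EBPα files (up to 2.52% of reads) and were removed here. They deposited 1 line per read with chromosome, start, end and strand. These deposited positions carry no score, normalization or control, and HOMER regions were not used here. Lines were taken as 0-based, and positions are given from 1.

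The compared libraries held 4945144 (C/EBPβ, reads of 40 bases) and 10204581 reads (PU.1, 36 bases) on chromosomes 1 to 19. Thinning used a fixed seed. Sequence came from NCBIM37, the mm9 assembly, and protein-coding TSSs from GENCODE vM1 of that build. Sites named were the 8 with the most reads per group, 1 per nearest gene, and genes of fixed lists with the most, fewest or no bins, others being named after their values were seen. The members and lists were chosen with earlier results of these data known. Scripts used Python 3.11.15, NumPy 2.4.6, SciPy 1.17.1 and pandas 2.3.3, and the counting was tested on simulated data. Alternatives varied the minimum, fold, move, bins, thinning and unit. The reference marks no repeats, so masking them was not run. A result for 1 gene of the fixed lists is not reported here.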

Additional observations from a re-analysis of the deposited data

How the results depend on the processing

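No paired analysis was possible because each factor had a single library at 48 hpi and no result comes from a test. The counts of bins followed the minimum of reads. With 5 reads there were 104554 bins, of which 23166 were C/EBPβ-high, 47941 PU.1-high and 13194 had both factors, and with 10 reads the numbers were 37335, 7385, 20333 and 3458. An 8-fold limit left 7886 C/EBPβ-high bins, 400-bp bins gave 11284 with both factors, and sites in place of bins numbered 38177 in all, 7640 C/EBPβ-high and 20059 PU.1-high. Each other count stayed within 1.5 times its reported value in the alternatives run, which included a second random draw, bins moved by 100 bp, all PU.1 reads scaled without thinning, the unused PU.1 reads, and, chosen after seeing the data, leaving out bins with 30 or more reads per 10000000 in all 3 libraries of 0 hpi. The C/EBP consensus in C/EBPβ-high bins (38.1%) was at 29.2% with 5 reads, 43.0% with 10, 34.9% with 2-fold and 41.5% with 8-fold limits, 44.4% in 400-bp bins and 48.2% over sites. The PU.1 consensus in PU.1-high bins (21.6%) was at 18.5%, 24.1%, 20.1%, 23.4%, 27.1% and 28.9% under the same alternatives, 22.1% with 5′ ends moved to the middle between the strands (by 55 and 119 bp), 23.0% without thinning and 22.3% with the unused reads. Longer bins hold more matches by construction, and for the other moves the cause was not tested. The share within 1 kb of a TSS ranged from 12.7% to 13.99% for C/EBPβ-high bins and from 11.8% to 13.1% for PU.1-high bins. Repeat masking was not run, since the reference marks no repeats. Depth limits what a count of 0 means, up to 3 reads per bin, and no value has a replicate.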
